A study of Caenorhabditis elegans with 2 samples.

Results

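The col genes of Caenorhabditis elegans were examined for binding of a CEH-40-GFP fusion protein. They were taken as all protein-coding genes whose symbol is col followed by a number in the Ensembl annotation, which gave 156 of 19985 protein-coding genes. Chromatin immunoprecipitation with sequencing (ChIP-seq) with an antibody against GFP had been done on 2 biological replicates of 1 group, whole young adults of strain OP232 at 76 h. Per the labels, the strain holds the insertion wgIs232, a ceh-40 transgene tagged with TY1, EGFP and FLAG together with unc-119, in an unc-119(ed3) background. The tagged protein is therefore made from a transgene, both replicates come from the same strain, and no group without the transgene was analysed here. The files are lists of peaks, the regions in which immunoprecipitated fragments were concentrated, each with a summit and a signal value that the authors give without a unit. They hold no read counts, so the depth behind each value is unknown.

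Cuticle collagens are secreted by the hypodermis, the epidermis of the worm, and form the exoskeleton that is rebuilt at each moult. Each chain carries repeats of glycine followed by any pair of residues, often proline and hydroxyproline, which wind into a triple helix and are crosslinked outside the cell. Many col genes are switched on in waves in the moulting cycle, and some, such as col-7, col-19 and col-62, belong to the adult cuticle. CEH-40 is a homeodomain protein of the PBC class, whose members bind DNA together with Hox proteins and with MEIS-class proteins. One member does not belong under the label of cuticle collagens: col-99 encodes a collagen that spans the cell membrane.

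A summit of the authors' thresholded list of both replicates, their list of peaks past a limit on irreproducibility, lay within 1 kb of a start site of 5 col genes. That is 3.21% of the 156 members (Wilson 95% interval 1.38 to 7.28%), beside 2.75% of all protein-coding genes. The 5 genes were col-52, col-85, col-185, col-42 and col-97. The authors' conservative list held 3 members, or 1.92% (0.656 to 5.50%), beside 2.25% of all protein-coding genes, and these were col-52, col-85 and col-185. The thresholded list of replicate 1 held 3 members beside 0.916% of all protein-coding genes, namely col-52, col-85 and col-181. That of replicate 2 held 3 members beside 0.896%, namely col-52, col-85 and col-185. Only col-52 and col-85 were in all 4 lists. In each of the 4 lists the share of all genes lay within the members' interval (0.656 to 5.50% for 3 members). Because whole worms were used, strong binding in a few cells and weak binding in many cannot be told apart.

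The summit at col-85 lay on a tRNA gene, and that at col-185 lay 1 bp outside one. The col-85 peak had a signal of 97.2 in the list of both replicates, with 46.6 in replicate 1 and 47.4 in replicate 2. Its summit was 337 bp downstream of the start of col-85, in an intron of that gene, and 17 bp from the start of the tRNA-Ile gene T21B4.t1, which runs on the opposite strand; the noncoding RNA gene T21B4.19 overlaps the same place. The col-185 peak had a signal of 77.1, with 32.5 in replicate 1 and 44.5 in replicate 2, and its summit was 945 bp upstream of col-185. It was 1 bp from the start of the tRNA-Pro gene H06A10.t1, within the overlapping noncoding RNA gene H06A10.3. Both peaks were thus closer to a tRNA start than to the collagen start by a wide margin. They are printed here (reference sequence of ce11 through RefSeq, 240 bases each, on the strand of the tRNA gene). The annotated tRNA gene, which each peak covers, is in capitals, 74 bases in the first and 72 in the second. The first is chrII:12494638-12494877, plus strand, and the second chrX:13511922-13512161, minus strand. The letters GTTCGA, a form of the core of the B box that RNA polymerase III factors read in tRNA genes, are in the first and not in the second. The tRNA gene of the second holds GTTCAA instead. Only the exact letters GTTCGA were searched, so their absence does not show that a B box is lacking.
col-85: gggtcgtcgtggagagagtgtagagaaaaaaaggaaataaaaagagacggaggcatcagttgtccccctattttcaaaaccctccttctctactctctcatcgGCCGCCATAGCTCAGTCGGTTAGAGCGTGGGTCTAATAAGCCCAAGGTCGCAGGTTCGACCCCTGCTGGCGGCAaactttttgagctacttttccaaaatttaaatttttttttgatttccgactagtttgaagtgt
col-185: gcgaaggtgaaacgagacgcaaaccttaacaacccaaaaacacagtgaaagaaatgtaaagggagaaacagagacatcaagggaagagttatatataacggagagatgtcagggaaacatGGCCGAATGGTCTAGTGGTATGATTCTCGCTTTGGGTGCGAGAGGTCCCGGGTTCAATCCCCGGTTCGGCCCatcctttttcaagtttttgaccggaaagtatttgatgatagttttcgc

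Another member had its only thresholded summit at a tRNA gene, in replicate 1 alone. At col-181 the summit of the replicate 1 list lay 997 bp downstream of a start, with a signal of 37.1, and 76 bp from the start of the tRNA-Lys gene W03G11.t1. A tRNA gene started within 1 kb of a start site of 3 col genes, col-54, col-85 and col-185, or 1.92% of members, beside 1.08% of all protein-coding genes. Counting tRNA, snoRNA, snRNA and rRNA genes together gave the same 3 members, or 1.92%, beside 2.30% of all. Of these 3 members 2 had a thresholded summit, beside 162 of 459 protein-coding genes with such a neighbour (35.3%). Of the 153 members with no such neighbour 3 had one, or 1.96%, beside 388 of 19526 protein-coding genes with none (1.99%). Away from small RNA genes the share of col genes was thus close to that of all genes.

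The summits at col-42 and col-97 were the weakest of the 5 and lay close to the end of the list. What orders the list was not established, so a place in it need not be a rank by signal. The col-42 peak had a signal of 39.8, with 20.8 in replicate 1 and 24.7 in replicate 2, and stood at place 849 of 867. Its summit lay in intergenic sequence 415 bp upstream of the start, and the nearest start of another gene was 1721 bp away. The col-97 peak had a signal of 38.7, with 22.0 in replicate 1 and 15.1 in replicate 2, and stood at place 851 of 867. Its summit lay 120 bp downstream of the start, in coding sequence. Neither was in the conservative list or in either replicate's own thresholded list. The -log10 of the irreproducible discovery rate (IDR, which measures how well peak ranks agree between compared peak sets) was 2.20 for col-42 and 2.14 for col-97. For the list that gave these values, the compared sets were not shown to be the 2 replicates. The 2 regions are shown because they hold no tRNA gene, which sets them apart from those of col-85 and col-185. The first is chrV:18637949-18638188, plus strand, with no coding base and, towards its end, repeats of the letters cctaag or near matches. The search for near-identical copies described below needed a stretch of at least 150 bp, so it could miss copies of short repeats like these. The second is chrIII:12993467-12993706, minus strand, with the 175 coding bases of col-97 in capitals, the start codon first among them.
col-42: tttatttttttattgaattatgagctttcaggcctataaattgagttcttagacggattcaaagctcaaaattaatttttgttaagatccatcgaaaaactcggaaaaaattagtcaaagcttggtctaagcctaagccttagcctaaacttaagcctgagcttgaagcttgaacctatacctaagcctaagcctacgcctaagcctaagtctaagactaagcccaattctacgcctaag
col-97: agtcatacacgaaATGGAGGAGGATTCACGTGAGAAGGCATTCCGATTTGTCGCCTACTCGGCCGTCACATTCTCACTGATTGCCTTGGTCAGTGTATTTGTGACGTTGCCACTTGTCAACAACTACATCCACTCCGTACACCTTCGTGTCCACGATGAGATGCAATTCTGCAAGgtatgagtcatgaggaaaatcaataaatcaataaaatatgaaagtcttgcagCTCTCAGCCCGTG

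At col-42 a second peak was higher but did not reach the thresholded list. It lay 122 bp downstream of the start in the gene's own coding sequence, with a signal of 42.5, 23.9 in replicate 1 and 27.2 in replicate 2, and a -log10 IDR of 1.82. The list ends at an IDR of 0.01. Among members with no thresholded summit, the strongest peak nearest to that limit was at col-122, with a -log10 IDR of 1.90 and a signal of 37.2, followed by col-38 with 1.66 and a signal of 46.6. Signal and IDR rank peaks differently, so a member can have more signal than another and still miss the list.

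The strongest signal of any col gene was at col-52, and it had no tRNA gene near it. The peak at chrI:4573587-4573826 had a signal of 119.2, with 55.0 in replicate 1 and 64.8 in replicate 2, and stood at place 89 of 867 in the thresholded list. A second thresholded peak next to it, chrI:4573238-4573477, had a signal of 61.2, with 32.1 in replicate 1 and 33.4 in replicate 2. Both were high in both replicates, and both were in the conservative list. The summits lay 920 and 571 bp upstream of the start of the shorter col-52 transcript and 1331 and 1680 bp downstream of the start of the longer one, in an intron of the longer one. The nearest start of another gene was 3497 bp from the first summit, that of D1007.3, and 3331 bp from the second, that of ceh-17, a homeobox gene. The nearest small RNA gene, a snoRNA, started 11542 bp from the first summit. G+C around the first summit was 34.5%. Counted from the longer transcript alone, col-52 had no thresholded summit within 1 kb and a strongest ranked signal of 51.7.

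**Figure D1:**
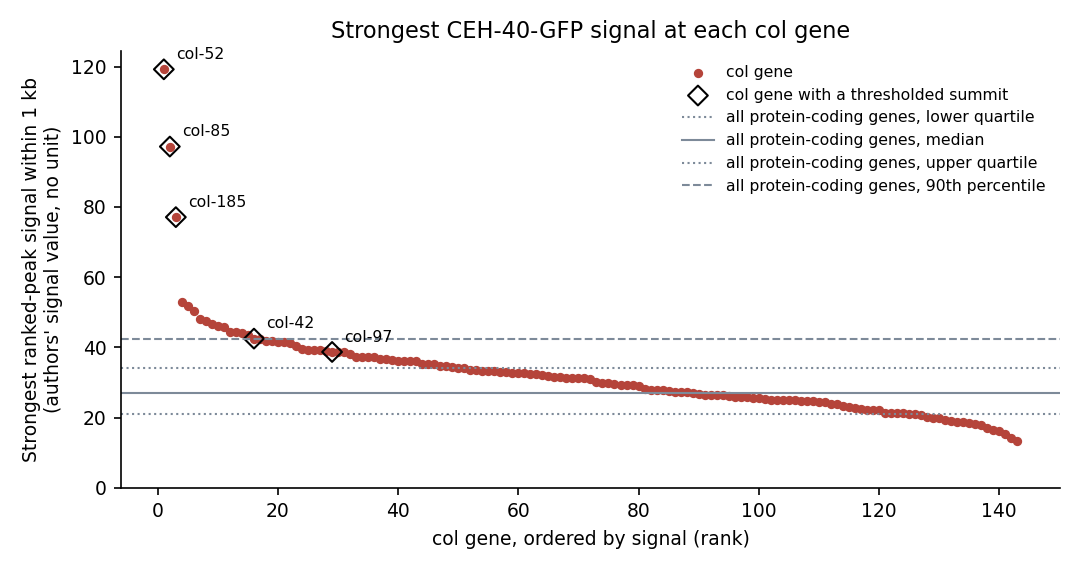
Strongest ranked-peak signal within 1 kb of a start site (y axis, authors' value with no unit) for the 143 col genes that have one, ordered from highest to lowest (x axis); lines give the quartiles, the median and the 90th percentile of all 17022 protein-coding genes with a ranked peak. Diamonds mark the 5 members with a thresholded summit; the point of col-42 is its higher peak of 42.5, which is not the thresholded one. Apart from 3 members at 77.1 and above, the family forms a continuous slope from 52.9 to 13.4.

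The ranked list of both replicates, which holds 103201 candidate peaks with no limit on IDR, gave a value for most members. A ranked summit lay within 1 kb of a start of 143 col genes (91.7%, interval 86.3 to 95.1%), beside 85.2% of all protein-coding genes. The strongest such signal had a median of 31.1 in col genes (quartiles 24.7 and 37, range 13.4 to 119.2) and 27.1 in all protein-coding genes (quartiles 21.0 and 34.1). The median member stood at percentile 65.8 of all protein-coding genes. Of the 143 members, 88 (61.5%) were above the median of all genes. The ranges between the quartiles of all genes held, low to high, 19, 36, 38 and 50 members. The upper end did not move with the median: 16 members (11.2%, interval 7.01 to 17.4%) were in the top decile, which by construction holds 10% of all genes. The family was thus short of low values and not rich in the highest ones, as the plot of ordered signals shows.

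Below the 3 strongest members, the highest signals were of a size that many genes reach. The value was 52.9 at col-169 (21.6 in replicate 1 and 26.8 in replicate 2), 51.9 at col-36 (26.2 and 27.5) and 50.5 at col-88 (26.7 and 17.9). It was 48.0 at col-101, where replicate 1 gave 14.1 and replicate 2 gave 38.2. Next came col-20 at 47.6, col-38 at 46.6, col-175 at 46.0, col-132 at 45.8, col-54 at 44.5 and col-61 at 44.3. The remaining members among the 20 highest were col-73 at 44.0, col-80 at 43.6, col-42 at 42.5, col-143 at 42.4, col-118 and col-39 at 41.8 each, and col-111 at 41.5. Of the 17 members from col-169 to col-111, the summit lay in the gene's own coding sequence in 12. At col-54 it lay 42 bp from the start of a tRNA gene. At col-132 it lay 932 bp upstream in coding sequence of prcc-1. At col-101 it lay in own coding sequence that is also within drl-1, and at col-39 and col-80 in own coding sequence within dph-2, so these values cannot be given to the collagen alone.

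Members known for a role in adults or in signalling were not among the 20 highest in the list of both replicates. The adult collagens col-7 and col-62 had no ranked peak within 1 kb in that list, though both had one in a replicate's own ranked list. The usual marker of the adult hypodermis, col-19, had 24.9 (15.1 in replicate 1 and 12.7 in replicate 2), at percentile 40.5. In the replicates' own ranked lists, where another peak may be the strongest, col-19 stood at percentile 44.6 in replicate 1 and 85.6 in replicate 2. Of the members described as targets of BMP-type signalling by DBL-1, which sets body size, col-41 had 31.7, with 7.31 in replicate 1 and 22.2 in replicate 2. The neighbours col-141 and col-142 share 1 peak of 35.2 (14.6 and 19.2), which lies in the coding sequence of col-141 and 681 bp upstream of col-142. Of the members tied to long life, col-13 had 36.2 (12.1 and 21.8), col-120 had 31.1 (26.9 and 12.3), col-10 had 27.7 (8.70 and 18.4) and col-144 had 26.5 (8.64 and 17.4). In the replicates' own lists col-120 stood at percentile 93.3 in replicate 1 and 57.5 in replicate 2. The col-13 peak lies wholly in sequence that has a near-identical copy elsewhere. The membrane collagen col-99 had 33.1, at percentile 72.1, with 5.37 in replicate 1 and 28.1 in replicate 2. The 3 lowest members with a value were col-72 at 13.4, col-77 at 14.3 and col-126 at 15.4.

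The strongest peaks of col genes lay more often inside the gene than those of other genes. In 80 of 143 members (55.9%, interval 47.8 to 63.8%) the summit was in the gene's own coding sequence, beside 28.8% of all protein-coding genes. It lay upstream of the start in 32.9% of members, beside 47.3% of all genes. The median position was 282 bp downstream of the start in col genes and 42 bp downstream in all genes. Col genes are short, with a median length of 1220 bp beside 2026 bp, so that the window of 1 kb on the downstream side covers most of the gene.

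**Figure D2:**
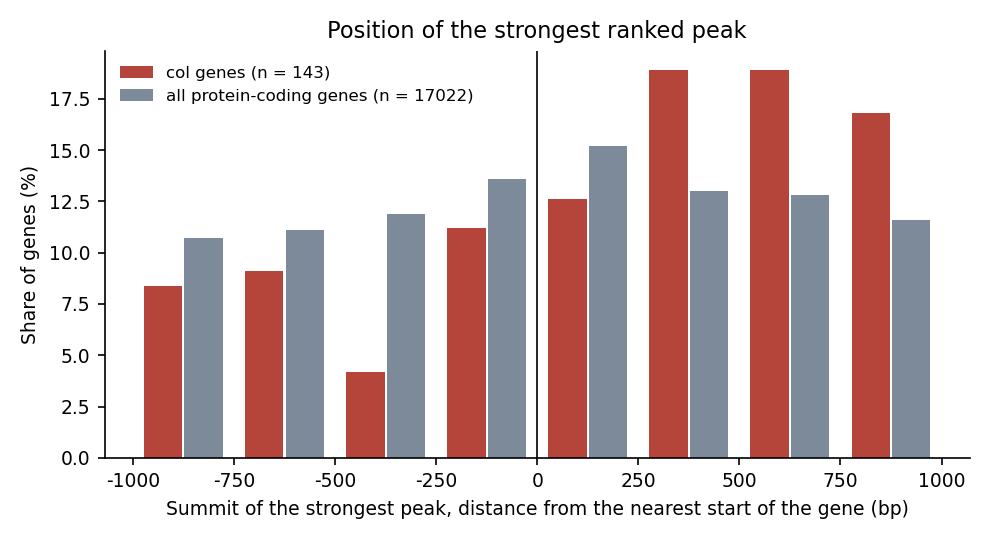
Share of genes (y axis, %) whose strongest ranked summit falls in each 250 bp bin of distance from the nearest start of the gene (x axis, bp, negative upstream), for the 143 col genes and for all 17022 protein-coding genes. Each of the 3 bins from 250 to 1000 bp downstream holds 16.8 to 18.9% of col genes and 11.6 to 13.0% of all genes, while each upstream bin holds a smaller share of col genes.

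Taken on each side separately, the signal at col genes was higher than that of all genes downstream of the start and not upstream. The strongest upstream signal had a median of 19.9 in the 128 members with an upstream summit and 22.8 in all such protein-coding genes, which put the median member at percentile 38.0. The strongest signal at or downstream of the start had a median of 28.1 in 135 members and 23.6 in all, at percentile 67.9. A summit was found upstream in 82.1% of col genes and 72.6% of all genes, and downstream in 86.5% and 75.5%. With genes that lack one counted at 0, the upstream medians came closer, at 17.1 in col genes and 18.2 in all genes (percentile 46.9), while the downstream medians were 26.4 in col genes and 19.7 in all genes (percentile 70.9). Among genes with an upstream summit, 6 members (4.69%, interval 2.17 to 9.85%) were in the top decile of all genes, beside 10%. These were col-52 at 119.2, col-185 at 77.1, col-132 at 45.8, col-143 at 42.4, col-107 at 41.5 and col-42 at 39.8. Among genes with a downstream summit, 29 members (21.5%, interval 15.4 to 29.1%) were in the top decile, beside 10%. Both replicates showed the same order in their own ranked lists. In replicate 1 the median member stood at percentile 45.1 upstream and 58.4 downstream, and in replicate 2 at 36.0 upstream and 66.9 downstream.

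**Figure D3:**
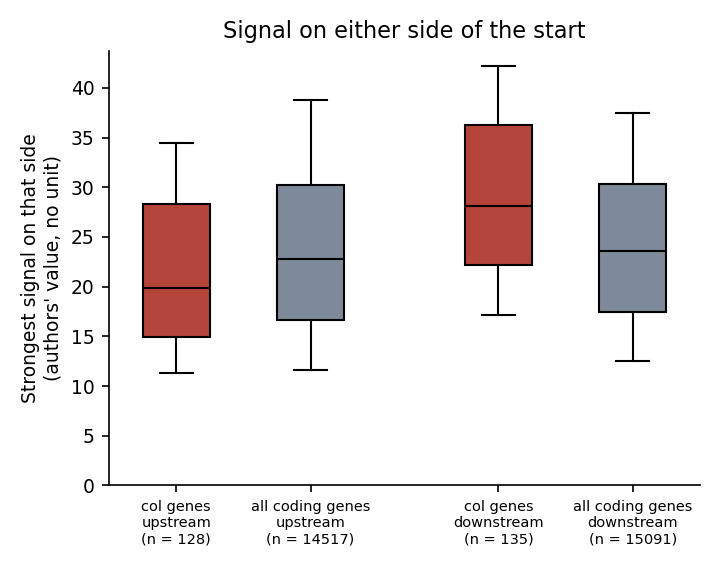
Strongest ranked-peak signal within 1 kb upstream and within 1 kb downstream of the start (y axis, authors' value with no unit), for col genes and all protein-coding genes; boxes give the quartiles and the median, and whiskers the 10th and 90th percentiles over genes. Only genes with a summit on that side enter. The col genes have the lower median upstream (19.9 beside 22.8) and the higher median downstream (28.1 beside 23.6).

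Base composition moved with this pattern. In the 200 bp around the strongest summit G+C had a median of 48.0% in col genes and 38.5% in all genes. Where the summit lay in the gene's own coding sequence it was 56.5% in col genes and 40.5% in all. Where it lay elsewhere it was 38.0% in both. Over all protein-coding genes the signal was higher where G+C was higher (Spearman's rho across genes 0.297, n = 17022 genes that share the same libraries), and over col genes rho was 0.218 (n = 143). When all genes were divided into quintiles by G+C at the summit, the top quintile, from 45.5 to 71.0%, held 80 of the 143 members. Within it, the median signal was 31.6 in col genes and 31.8 in the other protein-coding genes. In the 4 lower quintiles, with 12 to 20 members each, the median was 26.1, 23, 32.7 and 30.3 in col genes and 23.3, 25.5, 27.3 and 28.6 in the other genes, so that col genes were higher in 3 of the 4. On the downstream side alone, members with G+C of 45.5% or more had a median of 29.2 beside 27.8 in other genes, and 23.7% of these members were in the top decile of downstream signal beside 20.5% of the other genes. Members below that limit had a median of 24.9 beside 22.7 in other genes, with 6 of 38 in the top decile (15.8%) beside 7.76%. Genes were also divided by G+C of the whole window around the most upstream start. The top quintile then held 112 members, with a median signal of 32.0 beside 31.0 in other genes. In the 4 lower quintiles, with 3 to 14 members each, the members' medians were 22.1, 18.8, 30.0 and 24.9. Those of the other genes were 23.8, 25.4, 27.2 and 28.5, so that col genes were lower in 3 of the 4. The part of base composition in the family's higher median was not tested.

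**Figure D4:**
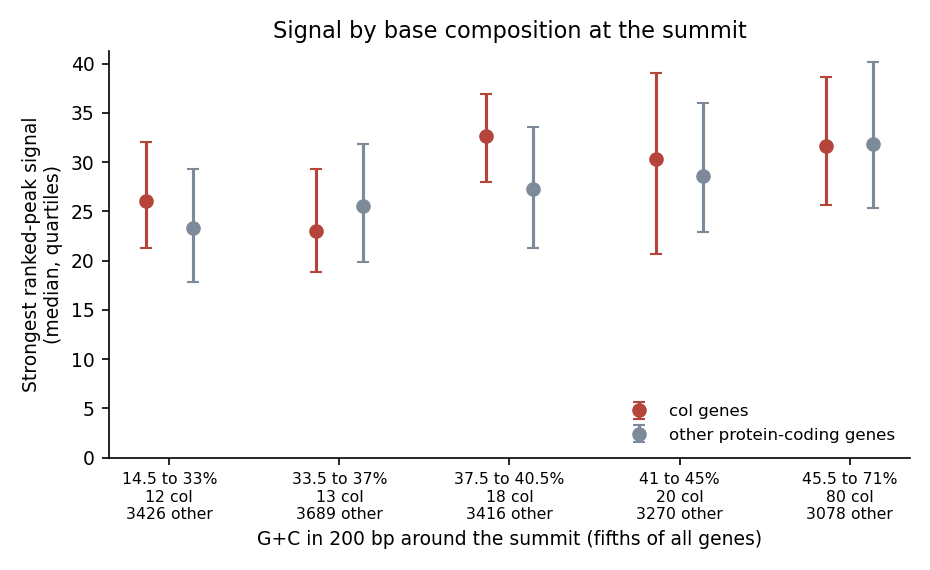
Strongest ranked-peak signal (y axis, authors' value with no unit; points are medians and bars span the quartiles over genes) in quintiles of all protein-coding genes by G+C in 200 bp around the summit (x axis), for col genes and other protein-coding genes. In the top quintile, which holds 80 of the 143 col genes, the medians are 31.6 and 31.8.

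The peak of col-36 is printed as an example of such a region, the highest of those in coding sequence with no near-identical copy. It is chrII:7167932-7168171 on the minus strand, with a signal of 51.9 and G+C of 56.7% over its 240 bases, all of them coding and therefore in capitals. The repeated letters CCAGGA in it belong to the triplets for proline and glycine of the collagen repeat.
col-36: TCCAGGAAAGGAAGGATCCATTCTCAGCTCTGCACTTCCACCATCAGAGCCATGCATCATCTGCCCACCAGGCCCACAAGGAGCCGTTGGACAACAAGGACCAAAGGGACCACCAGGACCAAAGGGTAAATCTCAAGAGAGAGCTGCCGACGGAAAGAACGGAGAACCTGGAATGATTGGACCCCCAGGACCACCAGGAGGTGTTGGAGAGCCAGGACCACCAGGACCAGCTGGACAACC

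The replicates agreed on the few strong members and little on the rest. Replicate signals were read from a further ranked list of 77932 peaks, which gives the matched peak of each replicate. The strongest peak had such a match in 132 members. Its median was 14.7 in replicate 1 and 17.7 in replicate 2, and 89 members (67.4%) were higher in replicate 2, beside 58.8% of all protein-coding genes. Across these 132 members the replicate signals had a Spearman's rho of 0.0924, and across 14402 protein-coding genes one of 0.180. Without the 3 strongest members, rho was 0.0276. These are correlations across genes in the same pair of libraries, over peaks chosen by a value made from both replicates, and are given as a description. The members in the top decile were 13 of 126 in the ranked list of replicate 1 (10.3%, beside 10% of all genes) and 15 of 129 in that of replicate 2 (11.6%, beside 10%). In the top decile of both lists were 4 members, col-36, col-52, col-85 and col-185, or 2.56% of col genes (interval 1.00 to 6.41%), beside 2.82% of all protein-coding genes.

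**Figure D5:**
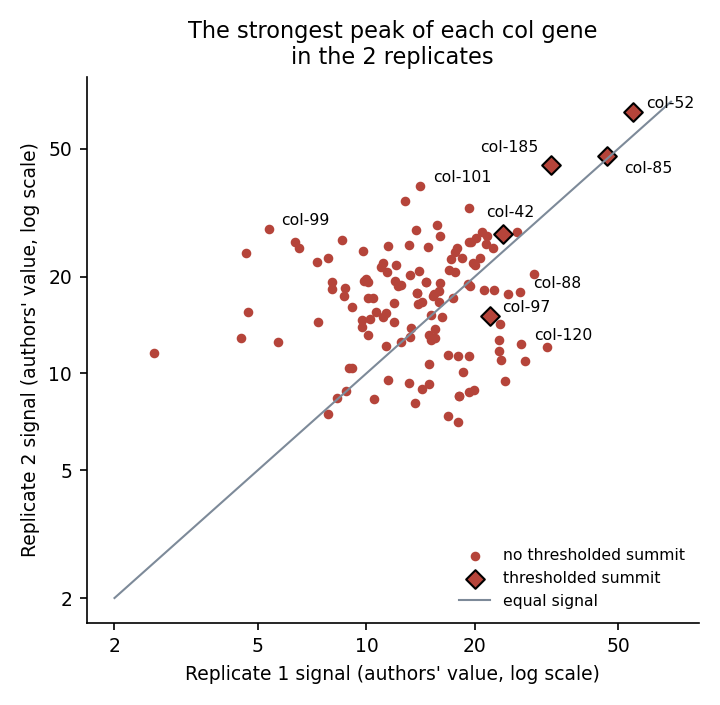
Signal of the strongest ranked peak of each col gene in replicate 1 (x axis) and replicate 2 (y axis), authors' values on log scales, for the 132 members with a matched peak in both; the line marks equal signal and diamonds mark members with a thresholded summit. The 3 members col-52, col-85 and col-185 are high in both replicates, while members such as col-99 (5.37 and 28.1) and col-120 (26.9 and 12.3) are high in 1 of them.

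No ranked peak lay near 13 members. They were col-7, col-55, col-56, col-60, col-62, col-64, col-71, col-128, col-133, col-137, col-152, col-174 and col-187, or 8.33% of col genes beside 14.8% of all protein-coding genes. For 6 of them, col-56, col-71, col-128, col-137, col-152 and col-174, neither replicate's own ranked list had one either. How the aligner placed reads with several matches is not given in the sources used here. A stretch of at least 150 bp with at least 95% identity elsewhere in the genome was found in the windows of 35 members, among them col-7, col-13, col-52, col-62, col-73 and col-169. The share with no ranked peak was 8.57% of these 35 and 8.26% of the other 121. The strongest peaks of 6 members, col-13, col-73, col-93, col-146, col-166 and col-169, lay wholly in such a stretch, so their signal cannot be told apart from that of the copy. The search covered only 1 kb on either side of the most upstream start. Both thresholded col-52 peaks lie outside that part, so whether they have a near-identical copy was not tested. Besides col-141 and col-142, the pairs col-3 and col-117 and col-159 and col-160 have a single strongest peak between them, so that the 143 members rest on 140 peaks.

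The family is spread over all 6 nuclear chromosomes, with 21 members on I, 24 on II, 12 on III, 41 on IV, 31 on V and 27 on X. The median member was above the median gene of the same chromosome on each of them. The median percentile was 66.9 in col genes and 54.9 in all genes on I, 52.9 and 50.2 on II, 66.9 and 51.8 on III, 57.4 and 50.5 on IV, 70.7 and 45.9 on V, and 67.8 and 49.4 on X. A thresholded summit lay at 1 member on each of I, II, III, V and X and at 0 of 41 members on IV, where 3.41% of all protein-coding genes had one. Of the 13 members with no ranked peak, 6 are on I. There, 15 of 21 members had a ranked peak, beside 2418 of 2878 protein-coding genes.

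Of 52 other collagen and cuticle genes in 5 lists, 0 had a summit of the thresholded list of both replicates within 1 kb of a start, beside 2.75% of all protein-coding genes, a share at which few would be called among so many. Of the 20 cuticle collagens named for a body-shape phenotype (dpy, rol, sqt, bli and lon genes), 19 had a ranked peak, with a median signal of 27.9 at percentile 53.3. The summits of these 19 resembled those of the col genes in position, with 57.9% in own coding sequence, and in G+C, with a median of 49.0%. Their highest was dpy-13 at 45.5 (14.4 in replicate 1 and 29.8 in replicate 2). It was followed by rol-6 at 44.6 (13.9 and 21.7) and lon-3 at 40.5 (23.6 and 13.9). The 11 of 12 genes for collagen processing with a ranked peak had a median of 27.7. They were led by the peroxidase gene mlt-7 at 57.4 (25.6 and 27.8). Next were pdi-2, a protein disulphide isomerase that also serves prolyl hydroxylation, at 49.6 (31.9 and 12.7) and the thioredoxin-like dpy-11 at 48.2 (16.7 and 39.8). The 9 regulators of cuticle genes had a median of 27.3. Their highest were myrf-1 at 46.3 (35.2 and 15.6), the GATA factor elt-3 at 33.2 (24.2 and 11.8) and grh-1 at 31.4 (15.3 and 14.8). The 7 of 8 cuticlins and apical matrix genes with a ranked peak had a median of 31.9. Their highest were cut-5 at 37.6 (30.1 and 13.4), noah-2 at 37 (18.6 and 19.8) and cut-1 at 35.2 (12.5 and 22.7). The 3 basement membrane collagens, cle-1 at 32.3 (13.5 and 17.7), let-2 at 31.6 (11.1 and 19.2) and emb-9 at 23.3 (13.7 and 9.71), had a median of 31.6. At rol-6, pdi-2, myrf-1 and emb-9 the summit lay in a noncoding RNA exon. For scale, 31 of 76 cytosolic ribosomal protein genes (40.8%) had a thresholded summit, with a median ranked signal of 50 and rpl-3 and rpl-15 at 225.9 and 148.1. The rpl-15 summit lay 559 bp from the start of a small RNA gene, and ribosomal protein genes with such neighbours were not set apart.

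Short motifs were counted on both strands in promoters, from 250 bp before to 50 bp after the most upstream start, and in 200 bp around the strongest ranked summits. TGATNNAT, the letters of PBC-Hox sites, were in 20.5% of members' promoters and 23.6% of all promoters, and in 10.5% of members' summits and 13.9% of all. TGACAG, the letters of MEIS-class sites, were in 30 of 156 members' promoters (19.2%, interval 13.8 to 26.1%) beside 9.68% of all. Without members that have a near-identical copy it was in 22 of 121 (18.2%). Members with these letters include col-10, col-41, col-61, col-80, col-99 and col-169. At the summits TGACAG was in 6.99% of members and 7.67% of all. Promoter and summit windows differ in length and place, so their shares are not like for like. Whether TGACAG in promoters goes with the signal was not tested. TGATAA, the letters of GATA sites, were in 29.5% of members' promoters and 30.2% of all, and in 9.09% of members' summits beside 17.2% of all. The summit windows differ in G+C, with a median of 48.0% in col genes and 38.5% in all genes. The part of G+C in the motif shares was not tested. GTTCGA was in 13.5% of promoters and 8.39% of summits of members, beside 9.84% and 8.51% of all. TGATNNAT and TGATAA can overlap, since TGAT begins both. A match says only that the letters are there.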

How the data were processed

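Whole young adults of 1 strain gave 2 replicates of CEH-40-GFP ChIP-seq. Peak lists on genome build ce11 were used, per the labels; no aligner or peak caller is named in the sources used here. Each peak has a signal value and a score deposited by the authors, with no stated unit, and the score follows the -log10 of the IDR column, which the authors also deposited. These are the authors' own values and were used only to describe, rank and filter peaks within a list. Signals and percentiles came from the ranked list of both replicates with 103201 peaks. The values of each replicate came from another ranked list, of 77932 peaks matched between replicates, whose first signal column matched position and signal in the list of replicate 1 in 35740 peaks and in that of replicate 2 in 0, and whose second matched replicate 2 in 41183 and replicate 1 in 0. The same 2 columns of the first list were not used.

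Genes came from Ensembl release 115 (WBcel235, the same assembly), and tRNA products and sequence from RefSeq. Summits within 1000 bp of any annotated start were assigned to a gene, so a summit may count for several genes. Percentiles are among protein-coding genes with a ranked summit in the window. Near-identical copies were found with BLAST 2.17.0; other steps used Python 3.11.15, pandas 2.3.3 and numpy 2.4.6, and the assignment was tested on simulated peaks. Intervals are Wilson 95% intervals for counting error only. With 1 group no test was made, and no p-value is given. The members and gene lists were chosen with earlier results of these data known. Genes named singly are all members with a thresholded summit, the 20 highest and 3 lowest, members with known adult, BMP or longevity roles, col-99, and up to 3 per other list; col-181, col-122, col-93, col-146, col-166, col-107 and the members named by position, motif or missing peak were named after their values were seen.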

Additional observations from a re-analysis of the deposited data

How the results depend on the processing

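Of 5 members with a thresholded summit (2.75% of all genes had one), 3 were left with a window of 500 bp (1.64% of all genes), with the conservative list (2.25%), without peaks whose summit is near a small RNA gene (1.95%) and with upstream summits alone (1.79%). At an IDR of 0.001 or less 2 were left (0.660%), as with downstream summits alone (1.12%). Without replicate 1 the count was 3 (0.896% of all genes), and without replicate 2 it was also 3 (0.916%). The median ranked signal of col genes was 24.6 (percentile 53.7) with a window of 500 bp and 33.3 (percentile 58.5) with 2 kb, beside 23.7 and 31.2 in all protein-coding genes. It was 29.2 with genes that have no ranked peak at 0. In a single replicate's list it ranged from 16.9 to 18.7, at percentiles from 57.9 to 61.9. With upstream summits alone it was 19.9 at percentile 38.0, with 6 members in the top decile, and with downstream summits alone 28.1, with 29. With genes that lack a summit on that side at 0, it was 17.1 at percentile 46.9 with 10 members upstream, and 26.4 at percentile 70.9 with 38 downstream. The median percentile was 61.9 without members near small RNA genes and 62 without those with a near-identical copy. Choices of side, with or without such genes, and of copies were made after seeing the data. The other results, among them all counts in the top decile with other windows, starts, lists or replicates (11 to 22 beside 16), stayed within 1.5 times or 1 SD between replicates. That SD rests on only 2 values, the medians of the single-replicate lists (1.24 for signal, 2.83 for percentile). Signals in those lists are lower than in the list of both replicates, so it is a rough yardstick. The counts in the top decile have unlike totals: 11 of 145 members with 2 kb and 22 of 156 with missing genes at 0, beside 16 of 143. The members' share was thus below the 10% of all genes in some settings and above it in others. The cause of these shifts was not tested. Of the 33 named members with a value, 17 had another strongest peak or none with 500 bp, 7 with 2 kb and 3 with only the most upstream start. No paired analysis was possible because there is 1 group. Depth is unknown, so absence of a ranked peak does not show absence of binding, and the low agreement between replicates limits what any single member's value below the 3 strongest can show.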
